A study of Mus musculus with 5 samples.

Results

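The genes described here are 53 transcripts of the unfolded protein response and the integrated stress response, of 27678 gene rows in the deposited table. They were taken by gene symbol from textbook knowledge of both pathways, with earlier results of these data known, and every symbol was found. They fall into an endoplasmic reticulum (ER) arm of 26 genes, an ATF4 arm of 22 genes, and 5 genes of the stress sensors and XBP1. The ER arm holds 16 chaperone and folding genes and 10 genes of ER degradation and translocation. The ATF4 arm holds 6 transcription factors, 9 enzymes of amino acid and one-carbon synthesis and 7 stress effectors and feedback genes.

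The study sequenced RNA of dendritic cells from mouse bone marrow cultures, from 2 Etv3+/+ and 3 Etv3-/- libraries. The protein ETV3 belongs to the ETS group of transcription factors. Marrow of either genotype grew for 6 days in medium holding 20 ng/ml of GM-CSF and 5 ng/ml of IL-4, so both groups share these cytokines and no other agent is named. Live CD11c+ CD11bint MHC-IIhi CD115- single cells were then sorted, with purity above 95% by the labels. The labels call the mice Etv3-/- and do not describe the allele or the animals' age, and whether each replicate is its own mouse or culture is not stated. The p-values therefore measure the spread between these libraries, which may be technical.

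Recovered depth was 42983550 to 68253936 reads per library. Etv3 itself had 23050 and 25447 normalized counts (reads divided by a factor for each library) in Etv3+/+ and 18691, 20416 and 22856 in Etv3-/-. All Etv3-/- libraries lay below both Etv3+/+ libraries, by little. The log2 fold change was -0.23 (limma adjusted p = 0.567; two-sided exact permutation p = 0.2 over 10 splits, where 0.1 is the smallest possible), so the gene-level total does not check the label. The dendritic cell genes Itgax, the CD11c gene, and Zbtb46, a dendritic cell transcription factor, had reads in every library, at 9808 to 16076 and 9852 to 12295 normalized counts. The dendritic cell list itself moved with genotype. Its 12 genes summed to 1281309 and 1747359 normalized counts in Etv3+/+ and to between 2442973 and 3267986 in Etv3-/-, with 1 called higher in limma, the class II regulator Ciita (adjusted p = 0.0380), and 0 called lower. Over all tested genes limma called 0.876% higher and 0.319% lower at an adjusted p under 0.05. At an unadjusted p under 0.05 5 of the 12 were higher and 1 lower, where 8.02% and 9.93% of all tested genes were. The antigen-presenting class II genes H2-Aa, H2-Ab1 and H2-Eb1 had ratios of means of 2.37, 2.91 and 3.02, and Fscn1, an actin bundler of mature dendritic cells, had 0.397. Etv3+/+ replicate 2 and Etv3-/- replicate 3 stood apart from the rest, since the deviations of their genes followed GC content in opposite directions (Spearman correlation across genes -0.42 and 0.41). Mitochondrial genes took 6.64% of the summed normalized counts in the first and 1.10% in the second, against 1.98% to 3.17% elsewhere. Without both of those libraries 13 of the 50 tested stress genes changed the sign of their log2 fold change, and with a correction for GC content and length 7 did. Of these genes 0 were called under any setting.

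Secretory and membrane proteins fold in the ER, where chaperones such as BiP (Hspa5) bind them and protein disulfide isomerases form their disulfide bonds. When unfolded proteins build up, the sensors IRE1 (Ern1), ATF6 and PERK (Eif2ak3) act. IRE1 splices Xbp1 mRNA, and spliced XBP1 and cleaved ATF6 turn on chaperone and degradation genes. PERK, like the amino acid sensor GCN2 (Eif2ak4), phosphorylates eIF2, which slows general translation and favours translation of ATF4, whose targets serve amino acid supply, redox balance and, with CHOP (Ddit3), cell death. Dendritic cells are known for steady IRE1 and XBP1 activity.

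The arms can be seen in the promoters. RefSeq promoter windows on GRCm38.p6, from 250 bases before to 50 after a start site, were found for 47 of the 53 genes. Hyou1, Manf, Derl1, Sec61a1, Atf6 and Cth had no window, so whether they carry any of these elements was not examined. The ER stress response element (ERSE), which is CCAAT and CCACG with any 9 bases between them, on either strand, was in 9 of 22 ER arm genes, in 0 of 21 ATF4 arm genes and in 37 of 27025 genes overall (0.137%). The related ERSE-II, ATTGG and CCACG with any 1 base between them, was in 2 ER arm genes, Dnajb11 and Herpud1, in 0 of 21 ATF4 arm genes and in 0.0444% of all genes. Both contain CCACG, which alone was in 20 of 22 ER arm genes and 17 of 21 ATF4 arm genes, against 35.5% of all genes. TGACGTGG, which is not the only element that XBP1 can bind, was in 0 of 47 and in 0.714% of all genes. A C/EBP-ATF element, TGATGNAA on either strand, was in 6 of 21 ATF4 arm genes, in 1 of 22 ER arm genes (Herpud1) and in 4.51% of all genes. A match is a description of letters, not a binding site, and the genes were listed as pathway members to begin with.

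The elements of 7 chaperone genes are shown with 5 bases on each side, 5′ to 3′ in the orientation of the motif, with the fixed letters in capitals, because these genes share a sequence while their log2 fold changes had both signs. In Hsp90b1 the element occurs on each strand.
Hspa5, chr2:34772020-34772048, plus strand: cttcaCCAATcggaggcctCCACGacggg
Calr, chr8:84847070-84847098, plus strand: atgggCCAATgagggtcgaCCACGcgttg
Pdia6, chr12:17266486-17266514, plus strand: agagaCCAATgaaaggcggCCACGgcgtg
Creld2, chr15:88819515-88819543, minus strand: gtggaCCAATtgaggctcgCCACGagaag
Hsp90b1, chr10:86705528-86705556, plus strand: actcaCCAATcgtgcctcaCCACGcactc
Hsp90b1, chr10:86705633-86705661, minus strand: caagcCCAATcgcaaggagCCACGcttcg
Canx, chr11:50325795-50325823, minus strand: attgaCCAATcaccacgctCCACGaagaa
Dnajc3, chr14:118937822-118937850, plus strand: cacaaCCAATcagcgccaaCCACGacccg

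The C/EBP-ATF element is shown the same way, with 11 bases on each side, for 4 ATF4 arm genes whose values differ widely below.
Chac1, chr2:119351038-119351067, minus strand: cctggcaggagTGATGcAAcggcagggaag
Nupr1, chr7:126625562-126625591, plus strand: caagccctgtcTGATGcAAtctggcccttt
Asns, chr6:7693214-7693243, minus strand: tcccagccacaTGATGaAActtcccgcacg
Pycr1, chr11:120643833-120643862, minus strand: tgccctgtgtaTGATGcAAtgcacaaggct

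Among the 47 genes with a window, Herpud1 was the single one with both kinds of element. Its 250 bases before the start site are printed on the plus strand, with the fixed letters of the C/EBP-ATF element (read here on the opposite strand, 112 to 105 bases before the start) and of ERSE-II (52 to 42 bases before it) in capitals. The same stretch of Creld2 and Dnajc3 follows, with the fixed letters of the ER stress response element in capitals (read on the opposite strand in Creld2), as a pair whose log2 fold changes had opposite signs.
Herpud1, chr8:94386179-94386428, plus strand: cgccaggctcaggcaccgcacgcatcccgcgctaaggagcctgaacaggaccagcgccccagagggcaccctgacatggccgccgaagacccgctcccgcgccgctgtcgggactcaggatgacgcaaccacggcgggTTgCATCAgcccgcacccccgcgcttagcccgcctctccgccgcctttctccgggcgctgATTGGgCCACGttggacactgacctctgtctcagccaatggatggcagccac
Creld2, chr15:88819396-88819645, plus strand: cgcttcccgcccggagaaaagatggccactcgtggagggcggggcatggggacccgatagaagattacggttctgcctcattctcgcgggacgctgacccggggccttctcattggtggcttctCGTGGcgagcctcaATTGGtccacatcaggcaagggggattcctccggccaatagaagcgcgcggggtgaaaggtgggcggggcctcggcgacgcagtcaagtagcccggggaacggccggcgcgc
Dnajc3, chr14:118937682-118937931, plus strand: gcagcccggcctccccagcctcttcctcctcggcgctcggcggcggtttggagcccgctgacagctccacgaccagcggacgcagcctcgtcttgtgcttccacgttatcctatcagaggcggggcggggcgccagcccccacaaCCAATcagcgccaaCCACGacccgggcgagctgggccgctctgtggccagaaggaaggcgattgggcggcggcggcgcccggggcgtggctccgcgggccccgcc

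Among the stress response genes the ER chaperone gene Hyou1 passed the test, and it rose in Etv3-/- cells. The other genes did not pass, which does not show that they were alike in both genotypes. Of the 53 genes, 50 were tested, having reached 10 normalized counts in 2 libraries or more. In limma on log2(normalized count + 1), 1 of 50 was higher in Etv3-/- at an adjusted p under 0.05, where 0.876% of all 13813 tested genes were, and 0 were lower, where 0.319% were. At an unadjusted p under 0.05, 10 were higher (20.0%, against 8.02% of all tested genes) and 2 lower (4.00%, against 9.93%). With DESeq2 on the recovered reads 4 were higher and 2 lower (12.0% of 50, against 8.60% of all tested genes), and with edgeR 1 and 0.

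For 19 genes every Etv3-/- library lay above both Etv3+/+ libraries, 38.0% of 50 against 16.7% of all tested genes. For 3 genes every one lay below, 6.00% against 19.3%. The genotypes overlapped for the other 28, while over all tested genes 36.0% had groups that did not overlap, in either direction. Log2 fold changes were positive for 35 of 50, 70.0% against 46.3% of all tested genes, with a median of 0.23 against -0.06. The median was 0.20 for the 25 tested ER arm genes and 0.22 for the 20 tested ATF4 arm genes. Under 20 other settings the ER arm median lay between 0.10 and 0.30 and the ATF4 arm median between 0.10 and 0.42. Neither these medians nor the difference between the arms was tested. The genes were chosen with earlier results of these data known, so the shares set against all tested genes are a description.

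**Figure D1:**
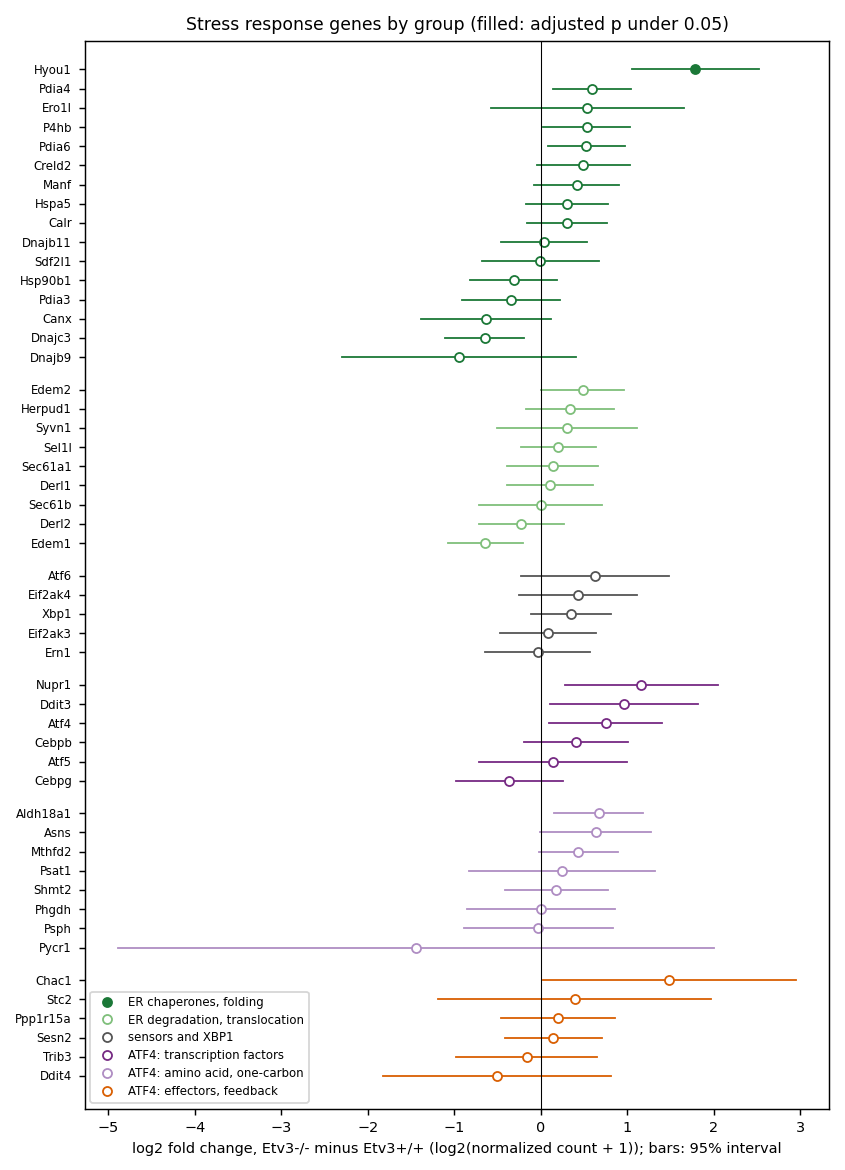
Log2 fold change of each of the 50 tested genes, Etv3-/- minus Etv3+/+, on the log2(normalized count + 1) scale, with 95% intervals as bars and genes grouped by role. Filled points have a limma adjusted p under 0.05, and Hyou1 is the single filled point.

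Hyou1 encodes an ER chaperone of the large Hsp70 family that helps BiP exchange nucleotide and that is named for its induction by low oxygen. The gene (ENSMUSG00000032115.14) lies on chromosome 9, from 44379490 to 44392369 on the plus strand of GRCm38. It had 513 and 418 normalized counts in Etv3+/+ and 1959, 1228 and 1708 in Etv3-/-. Every Etv3-/- library lay above both Etv3+/+ libraries. The group means were 465 ± 67.2 (SD, n = 2) and 1632 ± 371 (SD, n = 3), a ratio of 3.51. On the log2 scale the difference was 1.79, with a 95% interval of 1.05 to 2.52 (limma adjusted p = 0.0467, edgeR adjusted p = 0.0457).

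The size of the Hyou1 difference varied little over the 20 other settings, from 1.60 to 1.98, while the call was kept in 10 of them (adjusted p = 8.10e-06 to 0.193). It was lost on leaving out any of the 5 libraries (adjusted p = 0.0951 to 0.174). It was also lost without both Etv3+/+ replicate 2 and Etv3-/- replicate 3 (log2 fold change 1.60, adjusted p = 0.193). After a correction for GC content and length the log2 fold change was 1.74 and the call held (adjusted p = 0.0235). Per kilobase of exon, Hyou1 was the least abundant of the 16 chaperone and folding genes in Etv3+/+ cells, at 64.3 normalized counts per kilobase, and had 226 in Etv3-/- cells.

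Markers of other cell types moved with genotype in the same libraries. The summed level of 16 macrophage and monocyte genes was 71226 to 85324 normalized counts in Etv3+/+ and 88607 to 120040 in Etv3-/-. Cd63 made up much of it, at 48221 and 35017 in Etv3+/+ (log2 fold change -0.25). In limma 0 of 16 were called lower and 3 higher, C1qa, C1qb and C1qc, with ratios of means of 10.0, 4.56 and 5.98. At an unadjusted p under 0.05 9 were higher and 0 lower, and by DESeq2 8 and 0. The level of 12 B cell genes was 10071 to 10656 in Etv3+/+ and 18551 to 25436 in Etv3-/-. Blnk alone had 7892 and 7718 in Etv3+/+, with a ratio of means of 2.01. Of the 12, 0 were called in limma or edgeR, while 7 were higher at an unadjusted p under 0.05 and 5 by DESeq2. All members of both lists had reads in at least 1 library. Of all tested genes 8.02% were higher and 9.93% lower at an unadjusted p under 0.05, and DESeq2 called 8.60% in either direction. At an adjusted p under 0.05 limma called 0.876% of all tested genes higher and 0.319% lower. The summed level of 13 plasma cell genes, which include Xbp1 and Derl3, was 45527 to 47133 and 42037 to 57805, and Tnfrsf17 was at 0 in every library. Of its 10 tested genes 0 were called higher and 2 lower in limma. Prdm1, the gene of the repressor BLIMP-1, had 2765 and 2686 normalized counts in Etv3+/+ and 858, 640 and 853 in Etv3-/- (adjusted p = 0.0280), and the antibody heavy chain gene Ighg2b had 339 and 263 against 0 in each of the 3 (adjusted p = 0.0348). The plasma cell genes Jchain, a chain of secreted antibody, and Mzb1, an ER cochaperone of antibody secretion, reached 84.2 and 28.0 at most. Of the neutrophil, mast cell, T and NK cell, erythroid and cycling cell lists, 0 genes passed in limma or edgeR, with 0 higher and 5 lower at an unadjusted p under 0.05 and 1 lower by DESeq2. The summed level of 12 neutrophil genes was uneven between libraries, at 44382 to 51644 in Etv3+/+ and 13086 to 69492 in Etv3-/-. For 11 mast cell and basophil genes it was 11575 to 19916 and 12200 to 18548. The part of these cells in the differences of stress genes was not tested, and in bulk RNA fewer cells of a type and less RNA per cell cannot be told apart.

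Among the other ER chaperones, BiP differed far less than Hyou1. Hspa5, the master chaperone and main reporter gene of ER stress, had 39380 and 45049 normalized counts in Etv3+/+ and 52459, 51681 and 52112 in Etv3-/-. All 3 Etv3-/- libraries were above both Etv3+/+ libraries, with a ratio of means of 1.23. The difference on the log2 scale was 0.31, with a 95% interval of -0.17 to 0.78 (limma adjusted p = 0.465), whose upper end is below the lower end for Hyou1, and 0.50 after the GC and length correction. Calr, the glycoprotein chaperone calreticulin, had a ratio of 1.24 (log2 interval -0.15 to 0.76) and Manf, a secreted ER stress factor, 1.34 (-0.08 to 0.91). Their log2 fold changes of 0.30 and 0.42 were 0.20 and 0.27 after the correction, and Calr had 0.17 without Etv3+/+ replicate 2 and Etv3-/- replicate 3.

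Several disulfide isomerases were higher in every Etv3-/- library without passing the adjusted threshold. Pdia4 had 5207 and 4790 normalized counts in Etv3+/+ and 7347, 8270 and 6984 in Etv3-/- (log2 fold change 0.59, limma adjusted p = 0.183). Pdia6, which also acts on the IRE1 sensor, had 8669 and 8373 against 12316, 11038 and 13560 (log2 fold change 0.53, adjusted p = 0.219). P4hb, the abundant isomerase PDI, had 19272 and 18368 against 31549, 22797 and 27876 (log2 fold change 0.53, adjusted p = 0.256). These groups do not overlap, and the ratios of means lay between 1.44 and 1.51. With DESeq2, Pdia4 passed (adjusted p = 0.0289). Creld2, another secreted ER stress protein, had a ratio of 1.40 and groups that did not overlap (log2 interval -0.05 to 1.03), and its log2 fold change of 0.49 was 0.25 with the GC and length correction.

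Other folding genes had lower values. Dnajc3, the P58IPK cochaperone that restrains PERK and serves BiP, had 5026 and 5471 normalized counts in Etv3+/+ and 3443, 3502 and 3094 in Etv3-/-. Its groups did not overlap, and its log2 fold change of -0.65 had a 95% interval of -1.11 to -0.19 (limma adjusted p = 0.161, DESeq2 adjusted p = 0.0430). After the GC and length correction the value was -0.26. Dnajb9, the cochaperone ERdj4 and a sensitive target of XBP1, had 2261 and 6062 against 2297, 3309 and 933, with groups that overlapped. Its log2 fold change of -0.95 (95% interval -2.30 to 0.41, adjusted p = 0.436) became -0.44 with the correction and 0.29 without Etv3+/+ replicate 2 and Etv3-/- replicate 3.

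Canx, the membrane chaperone calnexin, Pdia3, the isomerase that works with calnexin and calreticulin, and Hsp90b1, the chaperone GRP94, also had negative values of -0.63, -0.34 and -0.31, all with overlapping groups. Without those libraries they were -0.04, -0.06 and -0.03. GC content was 40.6% to 46.9% for Dnajb9, Canx, Hsp90b1, Dnajc3 and Pdia3, below the 49.7% median of all tested genes. Dnajb11 and Sdf2l1, cochaperone partners of BiP, were at 0.04 and 0.00 with overlapping groups, and at -0.14 and -0.46 without those libraries. By level per kilobase in Etv3+/+ cells the order was led by Pdia3 with 19132, Canx with 10161 and Hspa5 with 9982 normalized counts per kilobase, and the ranges of Canx and Hspa5 overlap.

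**Figure D2:**
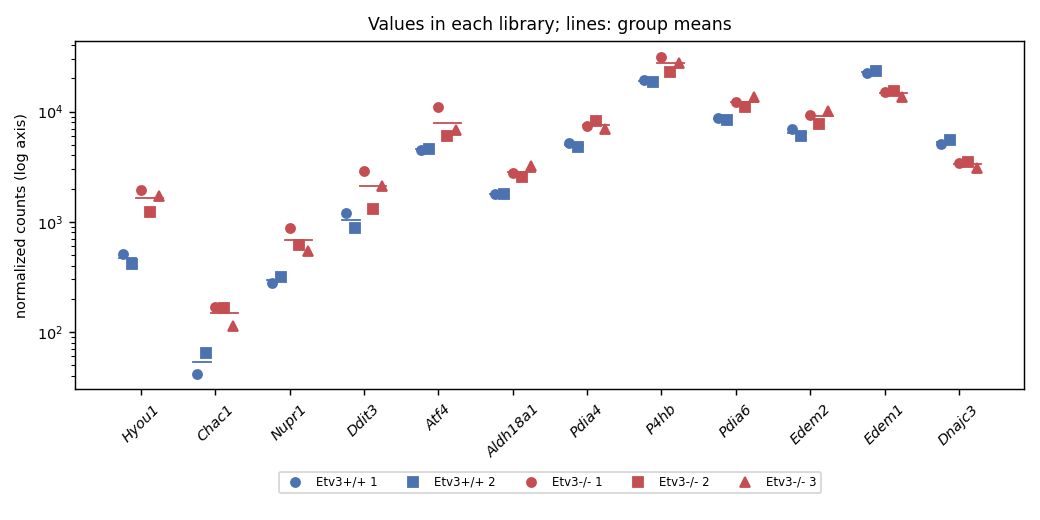
Normalized counts in each library (log axis) for the 12 genes with an unadjusted limma p under 0.05, ordered by log2 fold change, with group means as lines. All 12 have groups that do not overlap, 10 with the Etv3-/- libraries above and Edem1 and Dnajc3 with them below.

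Ero1l, the oxidase that recharges disulfide isomerases, depended on a single library. It had 3995 and 6399 normalized counts in Etv3+/+ and 14702, 6056 and 4444 in Etv3-/-. Etv3-/- replicate 1 stood above the others, and the rest of the groups overlapped. The log2 fold change of 0.54 (95% interval -0.58 to 1.65, limma adjusted p = 0.590) was 0.04 without that library, 1.02 with the GC and length correction and 1.24 without Etv3+/+ replicate 2 and Etv3-/- replicate 3.

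Of 9 tested genes of ER degradation and translocation 0 passed in limma or edgeR. At an unadjusted p under 0.05 1 was higher (Edem2) and 1 lower (Edem1), where 8.02% and 9.93% of all tested genes were. By DESeq2, which called 8.60% of all tested genes in either direction, 1 was lower. Edem1, which picks mannose-trimmed glycoproteins for degradation, had 22189 and 23551 normalized counts in Etv3+/+ and 14997, 15471 and 13623 in Etv3-/-. Its groups did not overlap and its log2 fold change of -0.64 had a 95% interval of -1.07 to -0.20 (limma adjusted p = 0.150, DESeq2 adjusted p = 0.0185). The value was -0.39 with the GC and length correction. Its relative Edem2 went the other way, with 6896 and 5984 against 9397, 7710 and 10016 (log2 fold change 0.48, adjusted p = 0.277, and 0.29 with that correction). Both genes act in glycoprotein disposal.

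Herpud1, a scaffold of the degradation complex and the gene with both promoter elements, had 15944 and 11730 normalized counts in Etv3+/+ and 15557, 19419 and 17090 in Etv3-/-, and the groups overlapped (log2 fold change 0.34, limma adjusted p = 0.456). Its value was 0.12 with the correction and also without Etv3+/+ replicate 2 and Etv3-/- replicate 3. The ubiquitin ligase Syvn1 and its partner Sel1l were at 0.31 and 0.20, and Derl1 and Derl2, channel proteins of the export step, at 0.10 and -0.22. The value for Derl2 was 0.17 with the GC and length correction. Sec61a1 and Sec61b, subunits of the translocation channel, were at 0.14 and 0.00. Without Etv3+/+ replicate 2 and Etv3-/- replicate 3, Syvn1 was at -0.22, Sel1l at 0.13, Derl1 at -0.05, Derl2 at -0.06, Sec61a1 at -0.15 and Sec61b at 0.54, so the sign of Syvn1, Derl1, Sec61a1 and Sec61b depended on those libraries. Sec61a1 was at -0.02 and Sel1l at 0.40 with the correction. Of these, Sel1l alone had groups that did not overlap. Sec61b had 11103 and 22634 normalized counts in Etv3+/+, with all 3 Etv3-/- libraries between them.

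The sensors showed no difference that passed. Ern1, the IRE1 gene, had 1081 and 1287 normalized counts in Etv3+/+ and 1212, 1086 and 1156 in Etv3-/- (log2 fold change -0.04, 95% interval -0.64 to 0.57), a value whose sign depended on the scaling. Eif2ak3, the PERK gene, had 1602 and 1542 against 1514, 1630 and 1878 (log2 fold change 0.09, interval -0.47 to 0.64). Groups overlapped for both of these kinase genes.

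Atf6 had 503 and 1053 in Etv3+/+ and 1022, 1153 and 1218 in Etv3-/-, so that Etv3+/+ replicate 1 was low and the other 4 libraries lay together (log2 fold change 0.63, 0.10 without that library and 1.11 without Etv3+/+ replicate 2 and Etv3-/- replicate 3). Eif2ak4, the GCN2 gene, had 1123 and 1812 against 2146, 1630 and 2039 (log2 fold change 0.43, limma adjusted p = 0.472, and 0.74 without the same pair). Xbp1, the abundant factor downstream of IRE1, had 22009 and 20492 against 30461, 24863 and 26178. Its groups did not overlap, with a ratio of means of 1.28 and a log2 fold change of 0.35 (95% interval -0.11 to 0.81, adjusted p = 0.404), or 0.15 with the GC and length correction. Opposite-strand genes share 10.4% of the exon bases of Psph, 10.3% of Hsp90b1, 8.16% of Sec61a1 and 8.05% of Eif2ak3, so their values carry the same doubt if strand was not used. Gene totals do not tell spliced from unspliced Xbp1, nor phosphorylated from unphosphorylated eIF2.

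In the ATF4 arm, the transcription factor genes held the highest median, 0.58 over 6 genes, with 0 of 6 passing in limma or edgeR. At an unadjusted p under 0.05 3 were higher, where 8.02% of all tested genes were. By DESeq2, which called 8.60% of all tested genes in either direction, 1 (Nupr1) was higher. Atf4, the effector of the integrated stress response (chromosome 15, 80255184 to 80257541), had 4515 and 4582 normalized counts in Etv3+/+ and 10955, 6021 and 6775 in Etv3-/-. Both Etv3+/+ libraries were close together and below all Etv3-/- libraries, and Etv3-/- replicate 1 was the highest. The group means were 4549 ± 48.0 (SD, n = 2) and 7917 ± 2658 (SD, n = 3). The log2 fold change of 0.75 had a 95% interval of 0.10 to 1.40 (limma adjusted p = 0.225), and was 0.49 without Etv3-/- replicate 1.

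Ddit3, the gene of the death-linked factor CHOP, had 1208 and 877 normalized counts in Etv3+/+ and 2893, 1311 and 2115 in Etv3-/-. Its groups did not overlap, although Etv3-/- replicate 2 lay near Etv3+/+ replicate 1 (log2 fold change 0.96, limma adjusted p = 0.236). Nupr1, a stress-induced chromatin protein gene, had 280 and 313 against 885, 612 and 540. The ratio of means was 2.29 and the log2 fold change 1.16, with a 95% interval of 0.28 to 2.05 (limma adjusted p = 0.182, DESeq2 adjusted p = 0.0436). It was 1.09 with the GC and length correction and 1.39 without Etv3+/+ replicate 2 and Etv3-/- replicate 3.

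Cebpb, a C/EBP factor that pairs with ATF4, had 1957 and 1834 normalized counts against 2974, 1959 and 2731, with Etv3-/- replicate 2 just above the Etv3+/+ libraries (log2 fold change 0.41, limma adjusted p = 0.443). Of its exon bases 20.7% are shared with Tmem189 on the opposite strand, so its value is uncertain in the same way. Cebpg, another ATF4 partner, had 2206 and 2323 against 2194, 1798 and 1383, lower in each Etv3-/- library (log2 fold change -0.36, limma adjusted p = 0.510, and 0.01 with the GC and length correction). Atf5, a related factor, had overlapping groups at 398 to 606 normalized counts over all 5 libraries (log2 fold change 0.14).

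**Figure D3:**
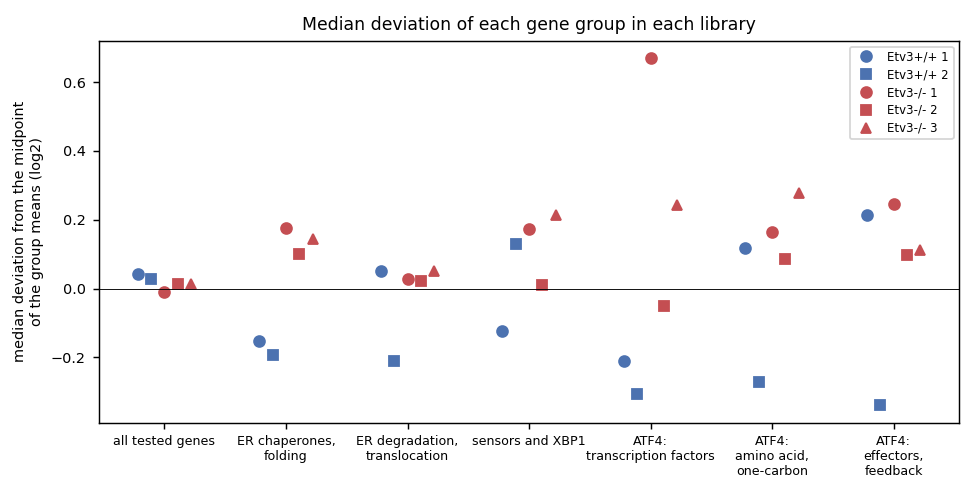
Median over the tested genes of each group of the deviation of log2(normalized count + 1) from the midpoint of the genotype means, in each library. The ATF4 arm's transcription factors have the widest spread, with Etv3-/- replicate 1 at 0.67 and Etv3-/- replicate 2 at -0.05.

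Enzymes of amino acid and one-carbon synthesis, which ATF4 turns on when amino acids are scarce, were mixed. Of 8 tested, 0 passed in limma or edgeR. At an unadjusted p under 0.05 1 was higher (Aldh18a1), where 8.02% of all tested genes were. The same gene was higher by DESeq2, which called 8.60% of all tested genes in either direction. The median of the 8 was 0.21, and -0.07 without Etv3+/+ replicate 2 and Etv3-/- replicate 3. Aldh18a1, the first enzyme of proline synthesis, had 1783 and 1772 normalized counts in Etv3+/+ and 2770, 2551 and 3201 in Etv3-/-. The ratio of means was 1.60 with groups that did not overlap (log2 fold change 0.67, 95% interval 0.15 to 1.19, limma adjusted p = 0.188, DESeq2 adjusted p = 0.0443). Pycr1, the enzyme of the last step to proline, was low and scattered, with 60.6 and 58.2 against 2.15, 31.0 and 109 (log2 fold change -1.44, 95% interval -4.88 to 2.01). That value depended on Etv3-/- replicate 1, which had 2 reads. It was -0.03 without that library, and -0.29 by DESeq2 on all libraries.

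Asns, asparagine synthetase and the classic amino acid response gene, had 837 and 1192 normalized counts in Etv3+/+ and 1497, 1730 and 1446 in Etv3-/- (log2 fold change 0.64, limma adjusted p = 0.283). Mthfd2, a mitochondrial folate enzyme and the most abundant of these enzymes per kilobase, had 13878 and 12694 against 19057, 15767 and 19154 (log2 fold change 0.43, adjusted p = 0.305). Both had groups that did not overlap. Phgdh, Psat1 and Psph, successive enzymes of serine synthesis, had log2 fold changes of 0.01, 0.25 and -0.03, and Shmt2, which passes serine carbon to folate, 0.18. The 95% intervals of Phgdh (-0.85 to 0.86), Psat1 (-0.83 to 1.32) and Psph (-0.89 to 0.83) hold the values of Asns and Mthfd2. Without Etv3+/+ replicate 2 and Etv3-/- replicate 3 the values of Phgdh, Psat1, Psph and Shmt2 were -0.04, -0.29, -0.51 and -0.10. The groups overlapped for each of these serine pathway genes.

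Among stress effectors and feedback genes Chac1 had the largest value. Chac1, an enzyme that breaks down glutathione and a late ATF4 and CHOP target, had 41.9 and 64.2 normalized counts in Etv3+/+ and 168, 166 and 114 in Etv3-/-. Its groups did not overlap, with a ratio of means of 2.81 (log2 fold change 1.48, 95% interval 0.02 to 2.95, limma adjusted p = 0.274). Stc2, a secreted glycoprotein gene, had 49.4 and 116 against 115, 96.6 and 88.6, and its groups overlapped (log2 fold change 0.39). Ddit4, an inhibitor of mTORC1, had 357 and 170 against 254, 141 and 146 (log2 fold change -0.50, and 0.03 without Etv3+/+ replicate 1).

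Trib3, a pseudokinase that dampens ATF4 and CHOP, had 837 and 735 normalized counts against 828, 825 and 503 (log2 fold change -0.16, limma adjusted p = 0.849). Ppp1r15a, the GADD34 subunit that returns eIF2 to its unphosphorylated state, was abundant at 36971 and 20461 against 33795, 27718 and 33689 (log2 fold change 0.20). Sesn2, another mTORC1 inhibitor, ranged from 11878 to 18657 over all libraries (log2 fold change 0.14). All 3 had overlapping groups. Without Etv3+/+ replicate 2 and Etv3-/- replicate 3 the values of Trib3, Ppp1r15a and Sesn2 were -0.02, -0.27 and -0.25. Among tested genes of the ATF4 arm, Chac1, Ddit3 and Nupr1 had the highest ratios of means, 2.02 to 2.81, without passing in limma. The feedback genes Trib3 and Ppp1r15a had 0.914 and 1.11. Among other members, Ddit4 had 0.685, Cebpg 0.791, Sesn2 1.08, Atf5 1.12, Asns 1.54 and Atf4 1.74. The log2 intervals of Chac1, Ddit3 and Nupr1 overlapped those of Trib3 (-0.98 to 0.65) and Ppp1r15a (-0.46 to 0.86). A difference between feedback genes and other members was not tested.

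The 3 genes that did not enter the test were Derl3, Vldlr and Cth. Derl3, a derlin of secretory cells, had 5.59 normalized counts in Etv3+/+ replicate 1, 4.95 in Etv3-/- replicate 2 and 0 in the others. Vldlr, a lipoprotein receptor gene, had 79.6 in Etv3-/- replicate 1, from 74 reads, 1.75 in Etv3-/- replicate 3 and 0 in the other 3 libraries. Cth, the cystathionine-cleaving enzyme of cysteine synthesis, had 0 reads in all 5, where 3 reads, the limit that a count of 0 allows, would be 2.57 to 3.72 normalized counts by counting error alone. The gene was not detectable at this depth.

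The libraries did not contribute alike. Among the 50 tested genes the highest value fell in Etv3-/- replicate 1 for 15 and the lowest in Etv3+/+ replicate 2 for 23. Etv3+/+ replicate 2 was also the highest library for 11, and Etv3-/- replicate 3 was the highest for 12 and the lowest for 10. These counts are a description, with no share over all tested genes beside them. The ER arm median deviation was -0.06 and -0.20 in Etv3+/+ and 0.05, 0.09 and 0.14 in Etv3-/-. For the ATF4 arm it was -0.02 and -0.28 against 0.23, 0.04 and 0.21. Etv3+/+ replicate 2 was the lowest library for both arms, and without it the medians of log2 fold change were 0.10 for the ER arm and 0.11 for the ATF4 arm. Over all tested genes the median deviation lay between -0.01 and 0.04 in every library.

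GC content moved with the ER arm. Of 12 tested ER arm genes above the median GC content of all tested genes 10 had positive log2 fold changes, with a median of 0.32, while of the 13 at or below it 6 did, with a median of -0.22. Over all tested genes the medians were 0.11 and -0.29 on the same split. After the correction for GC content and length, the ER arm medians were 0.21 and 0.14. Across genes, the Spearman correlation of GC content with log2 fold change was 0.37 over 25 ER arm genes, which share the same 5 libraries, and 0.08 after the correction. For 20 ATF4 arm genes it was -0.20, or -0.23 after the correction. Ero1l has 41.6% GC.

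**Figure D4:**
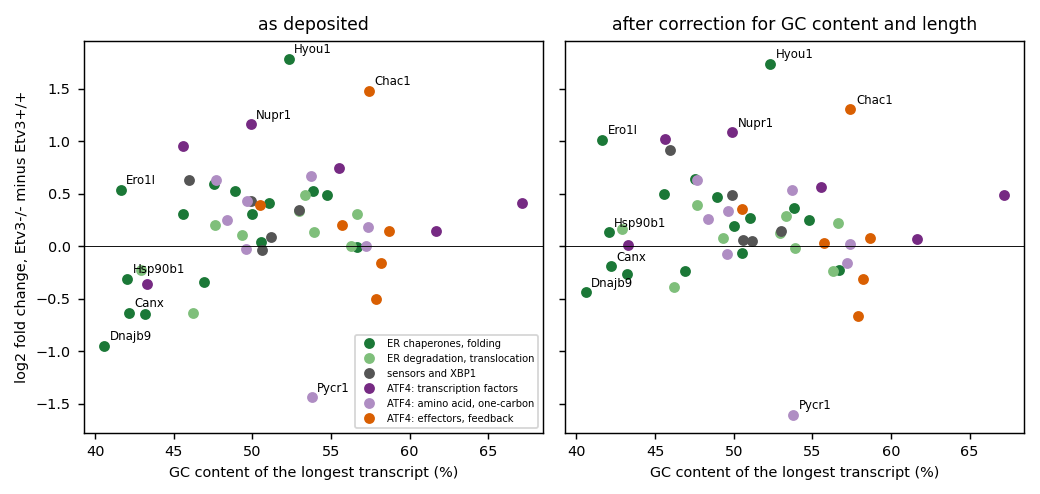
Log2 fold change of the 50 tested genes against the GC content of their longest transcript, as deposited (left) and after correction for GC content and length (right). Hyou1 stays at the top in both, at 1.79 and 1.74, while Dnajb9 goes from -0.95 to -0.44 and Hsp90b1 from -0.31 to 0.14.

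Genes with the same promoter element had values of both signs. Of 8 tested genes with the ER stress response element 5 had positive and 3 negative values, from -0.65 (Dnajc3) to 0.53 (Pdia6), with a median of 0.30. That median was 0.21 with the GC and length correction, where Hsp90b1 was at 0.14, and 0.067 without Etv3+/+ replicate 2 and Etv3-/- replicate 3. Creld2 and Dnajc3, whose upstream sequences are printed above, were at 0.49 and -0.65. Of 6 tested genes with a C/EBP-ATF element 4 were positive, with a median of 0.49, led by Chac1 and Nupr1, and Pycr1 and Trib3 were negative. Without Etv3-/- replicate 1 Pycr1 was at -0.03. Vldlr carried the element too and was not tested.

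Beyond the 53 genes, 151 genes of 8 related lists were examined, and of 148 tested 0 passed in limma or edgeR, while 10 were higher and 5 lower by DESeq2, which called 8.60% of all tested genes. At an unadjusted p under 0.05, where 8.02% of all tested genes were higher and 9.93% lower, other ER folding genes had 4 higher and 2 lower of 22, other degradation genes 1 and 2 of 16, and translocation and signal peptide genes 1 and 2 of 20. Their medians were 0.12, 0.01 and -0.30. The eIF2 and sensor list had 2 and 0 of 17 (median -0.10), other ATF4 targets 3 and 6 of 31 (median -0.01), and cytosolic heat shock genes 0 and 1 of 13 (median -0.29). Cytosolic tRNA synthetases, many of which ATF4 controls, had 5 higher and 0 lower of 19 matched in the table (median 0.31), including Cars, which is also on the ATF4 target list. After the correction for GC content and length, the translocation list had a median of -0.02, the heat shock list -0.19, the eIF2 list 0.06, the degradation list -0.07, the ATF4 targets -0.10 and the synthetases 0.20. Without Etv3+/+ replicate 2 and Etv3-/- replicate 3 the first was 0.00, and the others were -0.04, 0.05, -0.20, -0.01 and 0.17. The medians of the translocation and heat shock lists were thus near 0 without those libraries.

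The gene with the largest difference on each list, among those with a mean of at least 50 normalized counts over the 5 libraries, is given next. Pdia5, a further disulfide isomerase, had 566 and 482 normalized counts in Etv3+/+ and 26.9, 24.8 and 182 in Etv3-/- (log2 fold change -3.36, limma adjusted p = 0.126). Gdf15, a secreted stress cytokine induced by ATF4 and CHOP, had 16.8 and 18.0 against 721, 121 and 93.8 (log2 fold change 3.47, adjusted p = 0.139). In Pdia5 all Etv3-/- libraries were below, and in Gdf15 all were above, with Etv3-/- replicate 1 the highest. Without that library the value for Gdf15 was 2.55. Aldh1l2, a mitochondrial folate enzyme below that mean and named after its values were seen, had 112 and 42.8 normalized counts in Etv3+/+ and 0 reads in each Etv3-/- library, where 3 reads would be 2.63 to 3.72 (limma adjusted p = 0.121).

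Erlec1, a lectin of ER degradation, and Ssr1, a subunit of the translocon-associated complex, had log2 fold changes of -1.01 and -0.95, or -0.48 and -0.54 with the GC and length correction. Eif2b2, a subunit of the exchange factor for eIF2, and Vars, the valine tRNA synthetase, were at 0.65 and 0.74 (limma adjusted p = 0.180 and 0.190). Hspa1b, a cytosolic Hsp70 gene whose reads are uncertain beside its near-identical copy Hspa1a, was at -2.56 (adjusted p = 0.287).

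Genes of the low-oxygen response, listed because Ero1l and Hyou1 are also known to respond to hypoxia, had mostly positive values. Of 11 tested 10 were positive, against 46.3% of all tested genes, with a median of 0.81. In limma or edgeR 0 of them passed. At an unadjusted p under 0.05 4 were higher and 0 lower, where 8.02% and 9.93% of all tested genes were. By DESeq2, which called 8.60% of all tested genes in either direction, 4 were higher. Egln3, an oxygen-sensing hydroxylase gene, had 748 and 721 normalized counts in Etv3+/+ and 3695, 1360 and 1616 in Etv3-/- (log2 fold change 1.45, limma adjusted p = 0.153). Etv3-/- replicate 1 was the highest library for 8 of the 11, as it was for Ero1l, Hyou1, Atf4 and Ddit3.

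The glucose transporter gene Slc2a1, named after its values were seen, had 1372 and 967 against 3602, 2156 and 2931 (log2 fold change 1.30, limma adjusted p = 0.0916). Ldha, lactate dehydrogenase, also named so, had 49848 and 46542 against 123229, 71601 and 81647 (log2 fold change 0.90, adjusted p = 0.172). The groups of both did not overlap, as for 5 of the 11 tested genes of the list, all with Etv3-/- above. Over all tested genes 16.7% had groups that lay that way. Without Etv3-/- replicate 1 the values of Egln3, Slc2a1 and Ldha were 1.01, 1.13 and 0.67. Bnip3, Ankrd37 and Adm, also on the list, had overlapping groups and values of 0.12, 0.99 and -0.21. Without that library they were at -0.54, 0.37 and -0.56. The part of this response in the values of Hyou1 and Ero1l was not tested.

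**Figure D5:**
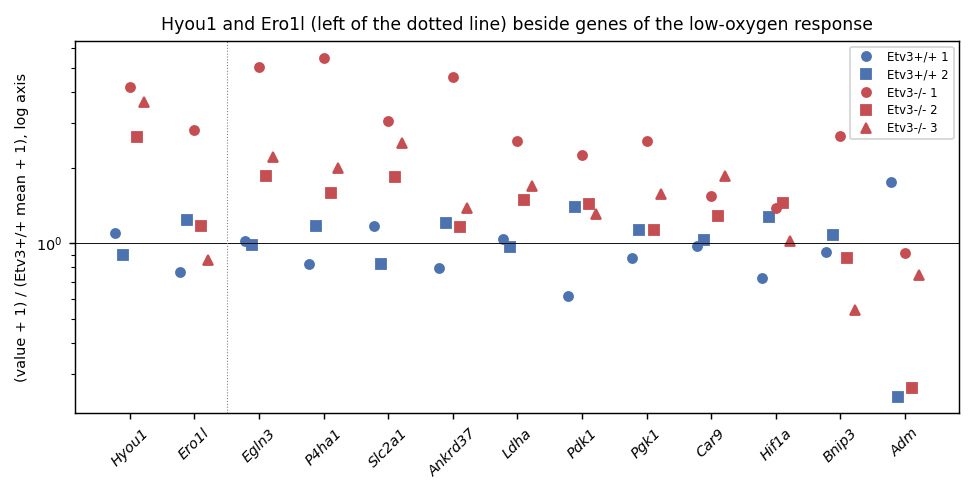
Value of Hyou1, Ero1l and the 11 tested genes of the low-oxygen list in each library, divided by the Etv3+/+ mean after adding 1 to both (log axis). Etv3-/- replicate 1 is the highest library for 8 of the 11 listed genes and for Hyou1 and Ero1l.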

How the data were processed

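The authors deposited a gene-level signal, read counts that had been scaled by 1 factor per library. The submitters' processing notes name DESeq2 1.26.0, STAR 2.7.3a, Trimmomatic 0.36, Subread 1.6.3 with featureCounts, and the build mm10. Annotation, strand setting and tool roles were not given in the sources used here. Libraries were made with a low-input SMART-Seq kit from up to 60000 cells, per the labels, without molecular identifiers.

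Values divided by each library's step gave whole reads within 0.1 for 100% of values. A gene needed a value of 10 in 2 of the libraries to be tested, with limma 3.58.1 (eBayes with trend, R 4.3.3) on log2(value + 1), two-sided, with Benjamini-Hochberg adjustment over all 13813 genes and a threshold of 0.05. The added 1 shrinks changes of low genes, but 1 library near 0 can weigh heavily on that scale. Pycr1 was at -1.44 on it and at -0.29 by DESeq2. edgeR 4.0.16 and DESeq2 1.42.0 were run on recovered reads, with the other alternatives of the closing section. The procedure was tested on simulated counts.

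Genes were fully described if they passed, had an unadjusted p under 0.05, were among the 2 highest or 2 lowest of their group, were sensors or Xbp1, or were Atf4 or Ddit3. From related lists, passing genes or the largest change at a mean of at least 50 were named. GENCODE M21 (GRCm38, the assembly of mm10) gave positions, merged exon length and longest-transcript GC content, for 98.5% of tested genes. Promoters are RefSeq's. The genes and lists were chosen with earlier results of these data known. Figures were drawn with matplotlib 3.10.9.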

Additional observations from a re-analysis of the deposited data

How the results depend on the processing

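Each result was refitted under 20 other settings, 1 of them, the omission of both Etv3+/+ replicate 2 and Etv3-/- replicate 3, chosen after seeing the data. Over all genes, limma called 121 higher and 44 lower. Other counts were 44 higher with trend=FALSE, 70 lower with a pseudocount of 5, 644 and 544 with DESeq2, 234 and 109 with the GC content and length correction, and 6 and 1 without both libraries. Leaving out each library gave 0 to 73 higher and 0 to 7 lower. Of the stress response genes 1 was called higher and 0 lower. That became 0 higher without the filter, with trend=FALSE, with sample weights, with the replicate block plus GC correction, without both libraries and in each single omission (0 to 0), and 4 higher and 2 lower with DESeq2. With the replicate block alone, 1 stress gene and 118 genes lower overall were called. Deviations of libraries with the same number correlated at -0.03 and 0.04, and number 3 occurs in Etv3-/- alone. With only 2 Etv3+/+ libraries these values are not separate checks, and they cannot decide whether equal numbers mark a pair.

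The ER arm median, 0.20, was 0.30 with quantile normalization and 0.13 without both libraries, and ranged from 0.10 to 0.29 over single omissions. The ATF4 arm median ranged from 0.11 to 0.42. The sign changes that follow are those of the fully described genes, none of them called under any setting here. Other stress genes also changed sign, and their values without both libraries stand in the results. Over single and double omissions Dnajb9 ran from -1.66 to 0.29, the highest without both libraries. Derl2 was 0.17 with the GC correction or 0.15 with the replicate block added. Ern1 was 0.024 with TMM, 0.019 with edgeR, 0.051 with quantile normalization, 0.063 with the GC correction and 0.058 with the block added, and ran from -0.16 to 0.089 over omissions. Eif2ak3 was -0.0007 with the block, and ran from -0.028 to 0.15 over omissions. Cebpg was 0.0091 with the GC correction and 0.077 with the block added. Psph was 0.030 with TMM, 0.039 with quantile normalization, 0.050 with edgeR and 0.017 with DESeq2, and ran from -0.51 to 0.25 over omissions. Trib3 was 0.075 with the block and 0.032 with the GC correction added. Over omissions Trib3 ran from -0.28 to 0.075, Ddit4 from -1.03 to 0.029 and Stc2 from -0.21 to 1.08. The cause was not tested. Omitting an Etv3+/+ library leaves 1, assumed to vary like the others.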
